A study of Ambystoma mexicanum with 12 samples.

Results

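Kinesins are motors that walk along microtubules or take them apart, and the transcriptome of the axolotl (Ambystoma mexicanum) spinal cord was examined here for the genes that encode them, their light chains and their accessory subunits. Members were the rows of the expression table whose human gene symbol begins with KIF or KIFC and a digit, with KIFAP, or with KLC and a digit. This gave 45 of 15091 genes. By the known role of each protein, 13 were mitotic kinesins, 21 belonged to transport kinesins, 5 to kinesins of cilia and 6 to none of these lists. KIF7, KIFC2, KIF2B and KIF28P, which also fit the naming rule, have no row in the table and were not analysed here.

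Spinal cord tissue was compared in 4 groups of 3 libraries each. Uninjured control and uninjured inhibitor cords were not lesioned, whereas at 4 dpi (days post-injury) control and inhibitor cords had lost a surgically removed piece of cord 4 days earlier, and the tissue around that lesion was taken. The inhibitor is an antisense reagent against the microRNA miR-200a, given into the central canal, and control animals received a control inhibitor. For the uninjured control this comes from the study's text, since the labels name that group only as uninjured cord. Each library pooled tissue of 10 animals, given as 2 to 3 cm long by the labels and as longer by the study's methods, which also describe electroporation of the inhibitor. No strain or genotype is given.

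In a dividing cell, bipolar motors such as KIF11 push the spindle poles apart, chromokinesins move chromosome arms, depolymerising kinesins shorten microtubules, and KIF20A, KIF23, KIF4A and KIF14 build the central spindle and midbody at which the daughter cells part. In a neuron, which does not divide, kinesin-1 (KIF5 heavy chains with KLC light chains), kinesin-2 (KIF3 with KIFAP3) and kinesin-3 (KIF1 and KIF13) carry vesicles, mitochondria and proteins outward along the axon. Spinal cord tissue holds both kinds of cell, since ependymoglial stem cells that line the central canal divide after injury in this animal.

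The values are deposited TPM, a measure of transcript abundance per length of transcript and per library total. They sum to 1e+06 in every library, so read depth is unknown. Comparing levels between genes assumes correct transcript lengths and read assignment, which could not be checked here. Values of a group are given in the library order 1, S2 and 5 for uninjured control, 1, 5 and 6 for 4 dpi control, and 5, 6 and 7 for both inhibitor groups. The correlation of replicates over all genes was lowest in uninjured control (r = 0.820 to 0.908, against 0.927 or more elsewhere). Uninjured control library 1 stood apart for the motors described here. Its transport kinesins summed to 1449 TPM, against 337 to 811 TPM in the other 11 libraries, and 12 neuron markers held 1.44% of its TPM, against 0.137% to 0.593%. Library S2, whose title carries no replicate number, had the most skeletal muscle transcript (9 markers, 3.81% of TPM, against 0.289% to 2.21%). All lists of cell type markers were fully present in the table.

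Differences were fitted with limma on log2(TPM + 0.5) over all 12 libraries and 14764 genes, and a gene was called higher or lower at an adjusted p under 0.05 with an absolute log2 fold change above 1. On this scale the fold change of genes at low TPM is understated. With the inhibitor the median of all genes shifted by −0.997 on the log2 scale in uninjured cords and by −0.62 at 4 dpi, so each comparison was repeated after median-of-ratios scaling, which brought these medians to −0.18 and −0.06. Ratios between motors within a library do not depend on its total. Of the 45 members 44 passed the filter of 0.5 TPM in 3 libraries. The exception, KIF4B, named for a human retrogene copy of KIF4A, stood at 10.0 TPM in uninjured control library S2, at 0.375 to 1.08 TPM in the 4 dpi control libraries and was listed at 0 in the other 8, and reads of KIF4A and KIF4B may not be separable.

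Levels of the members covered a wide range. KIF5B had the highest median over the 12 libraries (262 TPM, 152 to 342), followed by KIF11 (154 TPM, 61.8 to 301), and only these had a median of at least 100 TPM. The chromokinesin KIF22 (75.3 TPM), the kinesin-binding protein KIF1BP (68.8 TPM), KIF5A (57.7 TPM), KIF15 (52.8 TPM) and KIF5C (44.2 TPM) came next, and the ranges of neighbours in this order overlapped. Of the 45 members 15 had a median of at least 10 TPM. A further 6 had one under 1 TPM, among them KIF1A (0.988 TPM), the axonal motor for synaptic vesicle precursors, at a level far below that of the kinesin-1 heavy chains.

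Calls among the motors came between inhibitor and control in uninjured cords. There, 23 of 44 members were called lower and none higher (52.3% lower, against 42% of all genes tested, with 3.32% of all genes higher). Of the mitotic kinesins 6 of 12 tested were lower, of the transport kinesins 13 of 21, of the cilium kinesins 2 of 5 and of the others 2 of 6. After scaling 11 members were lower and 3 higher, beside 13.2% and 15.1% of all genes, and all 11 were among the 23. The deposited TPM gave 13 lower members when uninjured inhibitor library 5 was left out. Scaled and without uninjured control library 1, 4 members were lower (KIF12, KIF14, KIFC3 and KLC2) and 2 higher (KIF1BP and KIFAP3). For these fits with a library left out, the share of all genes called is not given here. Whether the drop is particular to the motors was not tested. On scaled values KIF12, KIFC3 and KLC2 were lower and KIF1BP higher whichever uninjured control library was left out.

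Markers of other cell types were counted in the same comparison. Beside them, 42% of all genes were lower and 3.32% higher, and after scaling 13.2% were lower and 15.1% higher. Skeletal muscle markers (9 of 9 called lower, 2 after scaling) held 0.884 to 3.81% of TPM in uninjured control and 0.289 to 0.749% in uninjured inhibitor, and epidermis markers (7 of 9 lower, 2 after scaling) 0.147 to 0.181% and 0.0516 to 0.0626%. Markers of ependymoglia and neural stem cells (5 of 8 lower, and 1 lower and 2 higher after scaling) held 0.11 to 0.472% and 0.115 to 0.166%. Leukocyte markers went the other way (4 of 9 higher and 1 lower, and 7 higher and 1 lower after scaling), from 0.0131 to 0.0238% to 0.0742 to 0.0846%. The part of these cell types in the motor differences was not tested.

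In the other comparisons no member was called on deposited TPM. For 4 dpi control minus uninjured control this was 0 of 44 (0.935% of all genes called), with 2 members at an unadjusted p under 0.05 in limma (10.5% of all genes). For 4 dpi inhibitor minus 4 dpi control it was 0 of 44 (1.88% of all genes), with 10 at an unadjusted p under 0.05 (32.4% of all genes), and for 4 dpi inhibitor minus uninjured inhibitor 0 of 44 (0.433% of all genes), with 4 at an unadjusted p under 0.05 (17.6% of all genes). Each group enters 2 of the 4 comparisons between groups, so comparisons that share a group are not independent. The uninjured control libraries, for example, enter both the injury comparison and the uninjured inhibitor comparison. A test of whether the inhibitor's effect differed with injury (interaction) called 0 of 44 members (0.0271% of all genes by adjusted p alone), with 4 at an unadjusted p under 0.05 (6.7% of all genes).

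**Figure D1:**
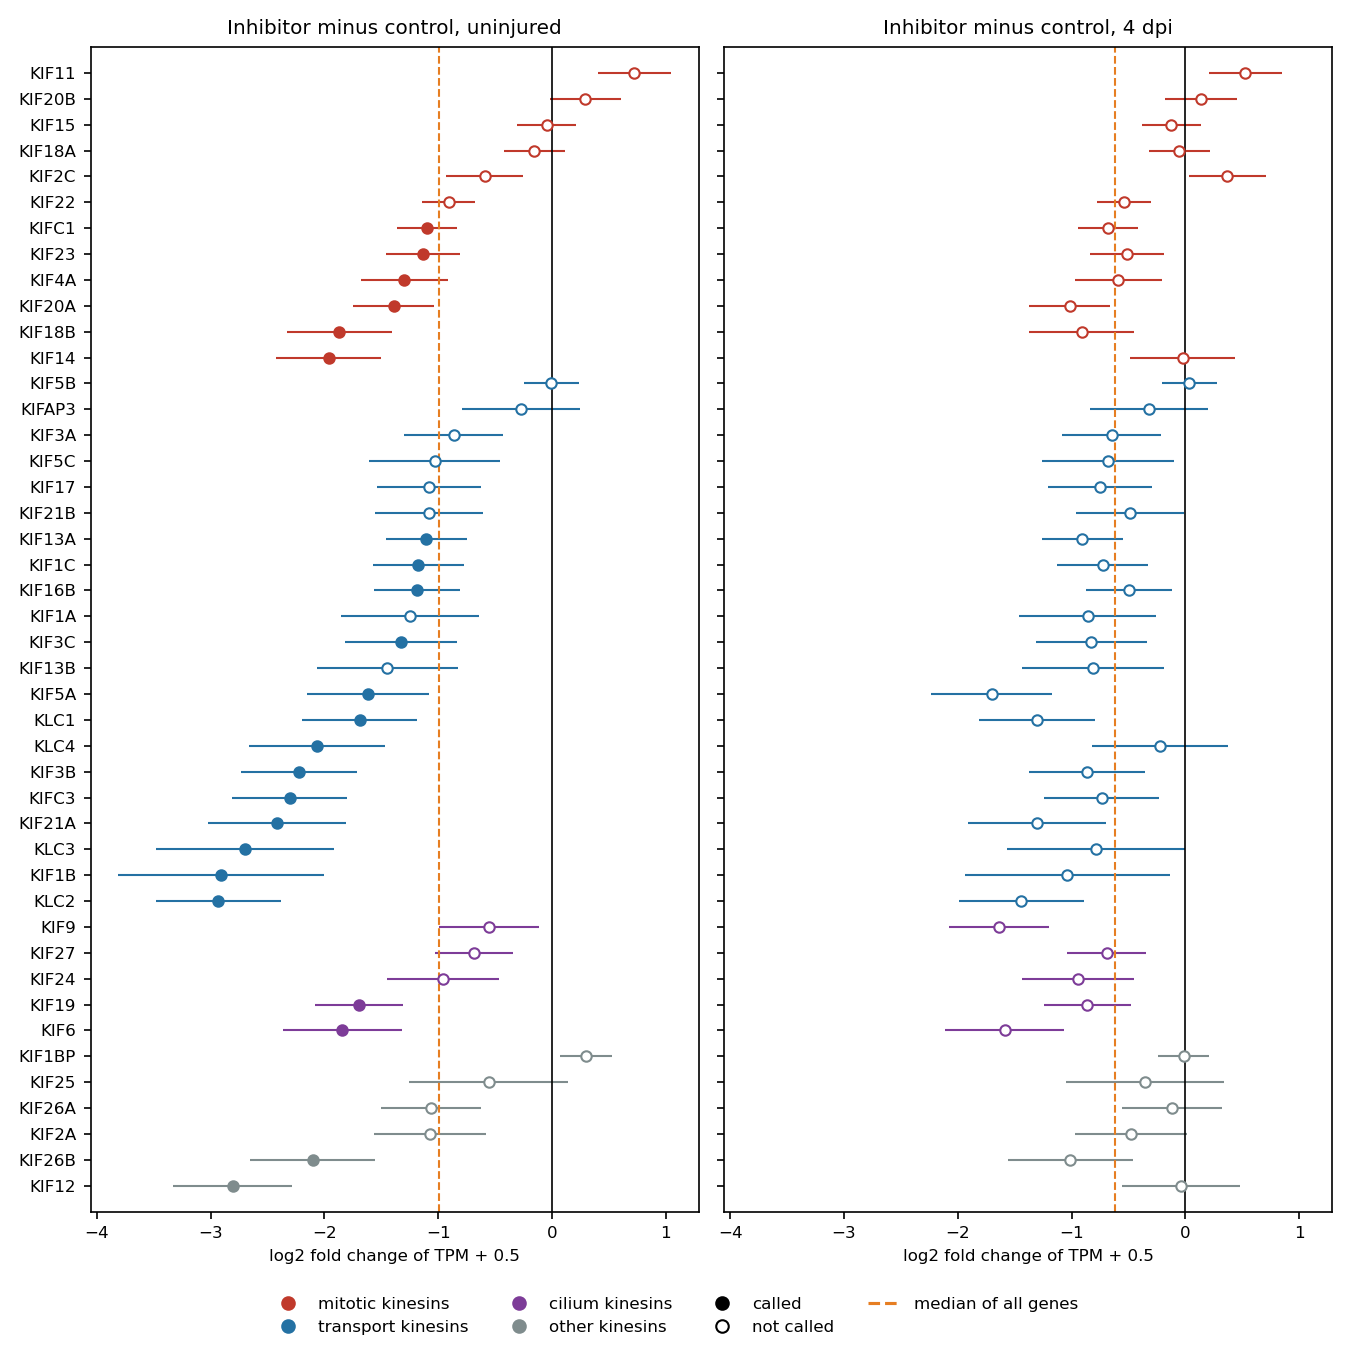
Change of the 44 tested members with the inhibitor, uninjured (left) and at 4 dpi (right), as the log2 fold change of TPM + 0.5 with its standard error from limma (n = 3 libraries per group). Filled points were called, open points were not, and the dashed line is the median of all genes (−0.997 and −0.62). KIF11 and KIF20B lie right of 0 in both panels. Without injury the mitotic kinesins KIF14, KIF18B, KIF20A, KIF4A, KIF23 and KIFC1 lie left of the dashed line. Among the transport kinesins KLC2, KIF1B, KLC3 and KIF21A lie furthest left without injury.

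Among the mitotic kinesins tested, KIF11, KIF20B, KIF15, KIF18A, KIF2C and KIF22 were not called lower with the inhibitor in uninjured cords on deposited TPM. At 4 dpi no mitotic kinesin was. KIF11, the plus-end motor that separates the spindle poles, stood at 61.8, 79.1 and 131 TPM in uninjured control, against 109.7, 235 and 220.3 TPM in 4 dpi control. It stood at 137, 171 and 124 TPM in uninjured inhibitor and at 247, 301 and 229 TPM in 4 dpi inhibitor libraries. The 3 libraries of 4 dpi inhibitor included the highest value of all 12, and only 4 dpi control library 5 reached into their range. No difference was called on deposited TPM (1.05 (adjusted p = 0.21) for injury in controls, 0.72 (adjusted p = 0.0711) for the inhibitor without injury, 0.52 (adjusted p = 0.253) at 4 dpi, 0.85 (adjusted p = 0.212) for injury under the inhibitor). After scaling KIF11 was higher in uninjured inhibitor than in uninjured control by 1.67 (adjusted p = 0.0147), a call absent without uninjured control library 1. Without 4 dpi control library 1 the injury difference in controls was also called, at 1.40 (adjusted p = 0.0377).

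KIF20B, which acts late in division at the midzone, was also higher after scaling, a call likewise absent without uninjured control library 1. It stood at 10.4, 10.4 and 17.9 TPM in uninjured control, at 12.9, 27.1 and 21.4 TPM in 4 dpi control, at 13.6, 18.8 and 14.3 TPM in uninjured inhibitor and at 21, 24.4 and 19.6 TPM in 4 dpi inhibitor. With the inhibitor in uninjured cords its change was 0.29 (adjusted p = 0.433) on deposited TPM and 1.20 (adjusted p = 0.032) after scaling. KIF15, a motor that can share the work of KIF11 in the spindle, ranged from 35.2 to 73.2 TPM over all libraries and differed by −0.05 (adjusted p = 0.886) in that comparison. KIF18A, which damps chromosome movements at the metaphase plate, ranged from 6.42 to 11.6 TPM and differed by −0.15 (adjusted p = 0.635). After scaling neither KIF15 nor KIF18A was called, although both means were higher in uninjured inhibitor. They were 68.7 against 38.5 TPM for KIF15 and 9.39 against 5.56 TPM for KIF18A, which was called higher in 1 of 20 alternatives. KIF2C, the centromeric depolymerase, differed by −0.59 (adjusted p = 0.149) without injury, and at 4 dpi its inhibitor libraries (8.10, 9.02 and 8.20 TPM) all lay above the control libraries (6.02, 5.97 and 7.39 TPM), with a change of 0.37 (adjusted p = 0.43).

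KIF20A and KIF23 were called lower with the inhibitor in uninjured cords on deposited TPM but not after scaling. KIF20A, which brings the chromosomal passenger complex to the central spindle, stood at 29.4, 32.3 and 28 TPM in uninjured control, against 10.2, 10.7 and 12.5 TPM in uninjured inhibitor, so the groups did not overlap (log2 fold change −1.39, SE 0.36, adjusted p = 0.00776). At 4 dpi the control libraries spread from 13.6 to 40.1 TPM (40.1, 13.6 and 26) and the inhibitor libraries stood at 9.55, 17.3 and 9.75 TPM, a difference that missed the threshold (−1.02 (adjusted p = 0.0884)) and was called without 4 dpi control library 5 (−1.42, adjusted p = 0.0365). KIF23, the motor subunit of centralspindlin, stood at 4.55, 4.94 and 3.52 TPM in uninjured control, against 1.62, 1.63 and 1.82 TPM in uninjured inhibitor, again with no overlap (log2 fold change −1.13, SE 0.32, adjusted p = 0.0128). In 4 dpi control it stood at 5.97, 3.37 and 4.82 TPM and in 4 dpi inhibitor at 2.77, 3.98 and 2.63 TPM, where the groups overlapped (−0.51 (adjusted p = 0.266)). After scaling the change without injury was −0.47 for KIF20A and −0.34 for KIF23, and the groups of each overlapped.

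KIF14, which binds the central spindle organiser PRC1 and is needed for the final cut, was lower in uninjured inhibitor on deposited and on scaled values. Its scaled call stood without uninjured control library 1, but did not hold whichever uninjured control library was left out. Uninjured control libraries held 3.53, 1.87 and 3.39 TPM and 4 dpi control libraries 3.95, 4.51 and 1.81 TPM. It fell to 0.286, 0.764 and 0.13 TPM in uninjured inhibitor (log2 fold change −1.96, SE 0.46, adjusted p = 0.00536; after scaling −1.40, adjusted p = 0.0218). In 4 dpi inhibitor it stood at 3.47, 4.70 and 1.88 TPM, all above the uninjured inhibitor libraries, by 2.10 (adjusted p = 0.0677) on deposited TPM and by 2.10 (adjusted p = 0.0365) after scaling, where it was called higher (0.773% of all genes). The fall without injury and this rise share the uninjured inhibitor libraries, so they are not independent. The inhibitor and control libraries at 4 dpi overlapped (−0.02 (adjusted p = 0.972)), and the interaction was not called (1.94 (adjusted p = 0.658)).

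KIF18B, a depolymerase of astral microtubules, was also lower without injury, although its scaled call was lost without uninjured control library 1. Its level was 4.23, 5.48 and 2.43 TPM in uninjured control against 0.609, 1.51 and 0.259 TPM in uninjured inhibitor (log2 fold change −1.87, SE 0.46, adjusted p = 0.00671; after scaling −1.21, adjusted p = 0.0389), and at 4 dpi 5.37, 2.69 and 3.66 TPM in control against 1.30, 2.76 and 1.49 TPM in inhibitor (−0.91 (adjusted p = 0.186)). KIFC1, the minus-end motor that bundles microtubules at the spindle poles, stood at 43.8, 41 and 37.3 TPM in uninjured control, against 16.2, 19.9 and 20.3 TPM in uninjured inhibitor (log2 fold change −1.10, SE 0.27, adjusted p = 0.00608). At 4 dpi KIFC1 stood at 47.9, 26 and 44.7 TPM in control and at 22.1, 29.7 and 20.1 TPM in inhibitor (−0.68 (adjusted p = 0.111)). KIF4A, a chromokinesin that also sets central spindle length, was called lower in uninjured inhibitor as well (25.8 ± 6.11 TPM in uninjured control against 10.0 ± 0.475 TPM, mean ± SD, n = 3 libraries; −1.30 (adjusted p = 0.0144)). KIF22, the other chromokinesin, did not reach the fold threshold (87.6 ± 11 against 46.5 ± 6.18 TPM, log2 fold change −0.91, adjusted p = 0.008), although its groups did not overlap on deposited TPM. KIFC1 and KIF4A were not called after scaling (−0.17 and −0.38). Scaled means of KIF22 were 64.9 TPM in uninjured control and 66.8 TPM in uninjured inhibitor, with overlapping libraries.

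Markers of dividing cells (12 of 12 in the table, none at 0 in any library) held 0.0569 to 0.0798% of TPM in uninjured control, 0.0784 to 0.0946% in 4 dpi control, 0.0801 to 0.0885% in uninjured inhibitor and 0.0877 to 0.117% in 4 dpi inhibitor. Of these markers 2 were called higher and 3 lower with the inhibitor in uninjured cords (beside 3.32% and 42% of all genes), 3 higher and 1 lower after scaling (15.1% and 13.2%), and their part in the motor differences was not tested.

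**Figure D2:**
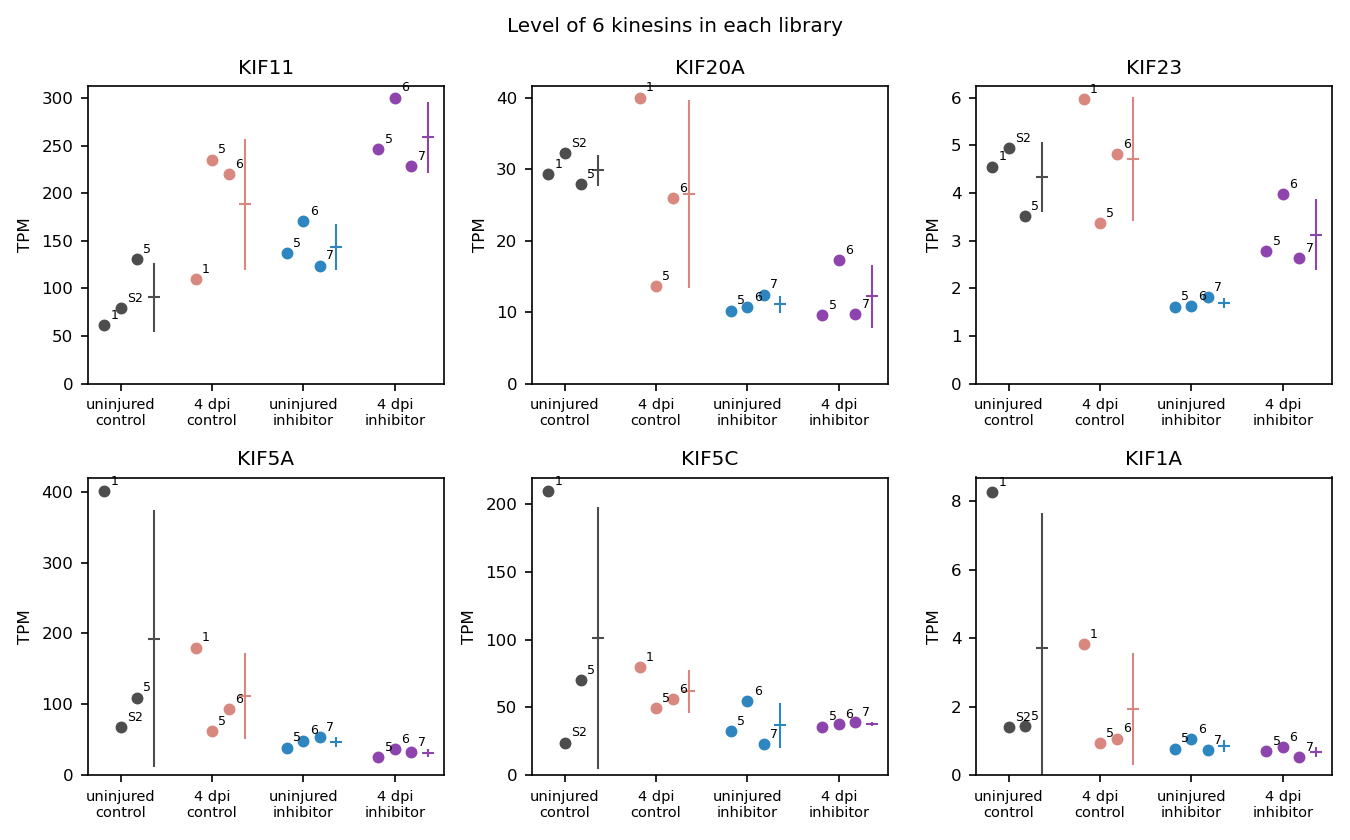
TPM of 3 mitotic kinesins (KIF11, KIF20A, KIF23) and 3 neuronal transport kinesins (KIF5A, KIF5C, KIF1A) in each of the 12 libraries, labelled by replicate, with the mean and SD of each group of 3 beside the points. KIF11 reaches 301 TPM in a 4 dpi inhibitor library, KIF20A and KIF23 are lowest in uninjured inhibitor or 4 dpi inhibitor libraries, and uninjured control library 1 lies far above all others for KIF5A (401 TPM), KIF5C (209.6 TPM) and KIF1A (8.27 TPM).

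Among the transport kinesins the heavy chains of kinesin-1 differed from each other. KIF5A, the heavy chain that is most restricted to neurons, stood at 401, 67.2 and 109 TPM in uninjured control, against 38.7, 48.6 and 53.2 TPM in uninjured inhibitor (log2 fold change −1.62, SE 0.53, adjusted p = 0.0233). At 4 dpi it stood at 180.0, 62.3 and 93.6 TPM in control and at 25.3, 36.2 and 32.1 TPM in inhibitor libraries. On deposited TPM the groups did not overlap in either comparison, and at 4 dpi the difference missed the threshold (log2 fold change −1.70, SE 0.53, adjusted p = 0.0709). It was called at 4 dpi when either uninjured control library 1 (adjusted p = 0.0225) or S2 (adjusted p = 0.0393) was left out of the fit, or 4 dpi control library 5 (adjusted p = 0.0496). After scaling it was not called in uninjured cords (−0.68, adjusted p = 0.207) or at 4 dpi (−1.07, adjusted p = 0.186). The scaled groups overlapped in uninjured cords (222.7, 59.8 and 88.9 TPM in control, 57.8, 61.8 and 80.8 TPM in inhibitor) but not at 4 dpi.

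KIF5C, the second neuronal heavy chain, stood at 209.6, 23.9 and 70.4 TPM in uninjured control, 79.5, 49.6 and 56.1 TPM in 4 dpi control, 32.3, 54.8 and 22.9 TPM in uninjured inhibitor and 35.8, 37.9 and 38.8 TPM in 4 dpi inhibitor. Its groups overlapped without injury (−1.03 (adjusted p = 0.141)) and did not at 4 dpi (−0.68 (adjusted p = 0.392)) on deposited TPM. Scaled groups of KIF5C overlapped at 4 dpi too (46.9, 45.1 and 45.6 TPM in control, 43.9, 40.0 and 49.4 TPM in inhibitor). KIF5B, the heavy chain found in most cell types, was not called in any comparison. It stood at 250.4, 152 and 262 TPM in uninjured control, against 219.7, 263 and 171 TPM in uninjured inhibitor (−0.01 (adjusted p = 0.988)). After scaling its mean was 162 TPM in uninjured control and 307 TPM in uninjured inhibitor. Over the alternatives this limma change ran from −0.32 to 0.94 (adjusted p down to 0.0289), always short of the fold threshold. At 4 dpi the deposited values were 246, 342 and 305 TPM in control and 297, 316 and 294 TPM in inhibitor (0.03 (adjusted p = 0.922)).

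The composition of the heavy chain pool followed from this. KIF5A made up 46.6, 27.7 and 24.8% of the summed TPM of KIF5A, KIF5B and KIF5C in uninjured control and 13.3, 13.3 and 21.6% in uninjured inhibitor. At 4 dpi its share was 35.6, 13.7 and 20.6% in control and 7.08, 9.28 and 8.80% in inhibitor. In both states of injury the inhibitor libraries lay below the control libraries, and the 3 libraries with both injury and inhibitor were the lowest of all 12. KIF5B made up 29.1% to 62.5% in uninjured control and 80.6% to 82.9% in 4 dpi inhibitor. These shares were chosen after their values were seen and carry no test, and reads of these related genes may be split unevenly between them.

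**Figure D3:**
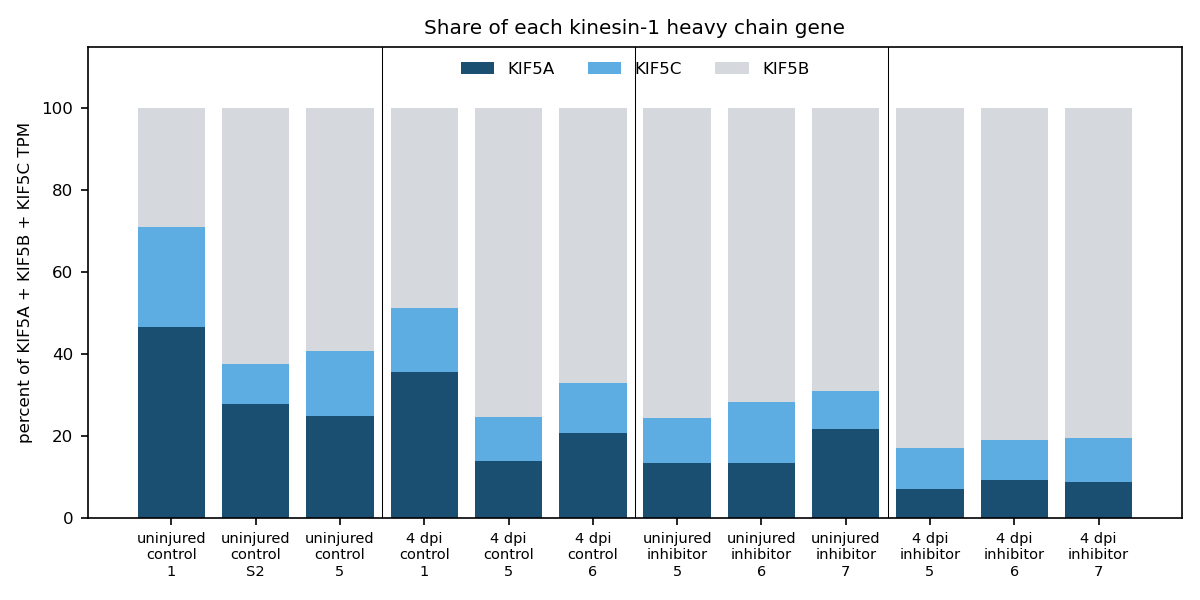
Share of KIF5A, KIF5C and KIF5B in their summed TPM, in percent, with 1 bar per library from 0 to 100%, grouped by condition and labelled by replicate. The KIF5A share runs from 46.6% in uninjured control library 1 down to 7.08% in 4 dpi inhibitor library 5, while KIF5B, in grey, holds over 80% in the 3 libraries of 4 dpi inhibitor.

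The light chains that couple kinesin-1 to its cargo were all called lower with the inhibitor in uninjured cords. KLC2 fell from 147, 34.3 and 47.7 TPM in uninjured control to 6.56, 13.4 and 5.18 TPM in uninjured inhibitor (log2 fold change −2.93, SE 0.55, adjusted p = 0.00241). It kept this call under all 20 alternatives, scaling included (−2.02, adjusted p = 0.00401). At 4 dpi KLC2 stood at 83.2, 23.6 and 33.2 TPM in control and 14.1, 17.3 and 12.6 TPM in inhibitor (−1.44 (adjusted p = 0.106)), and it was called there without uninjured control library 1 (adjusted p = 0.041). KLC1, the light chain abundant in neurons, stood at 41.4, 8.84 and 12.9 TPM against 3.89, 5.01 and 5.96 TPM without injury (log2 fold change −1.69, SE 0.51, adjusted p = 0.0157) and at 19.9, 6.86 and 8.90 TPM against 4.27, 4.27 and 3.60 TPM at 4 dpi (−1.30 (adjusted p = 0.11)). KLC3 and KLC4 were low. KLC3 stood at 17.3, 2.65 and 1.56 TPM in uninjured control, against 0, 1.18 and 0 TPM in uninjured inhibitor (−2.70 (adjusted p = 0.0135)), and KLC4 at 3.40, 1.03 and 2.48 TPM and 0, 0.478 and 0 TPM (−2.06 (adjusted p = 0.0135)). After scaling KLC3 and KLC4 were still lower in this comparison and KLC1 was not called (−0.80, adjusted p = 0.106). Without uninjured control library 1 the scaled calls of KLC3 and KLC4 were lost.

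The subunits of kinesin-2, which carries cargo in axons and along the shaft of cilia, did not move together. KIF3B fell from 52, 13.6 and 14.3 TPM in uninjured control to 3.64, 7.20 and 2.86 TPM in uninjured inhibitor (log2 fold change −2.23, SE 0.51, adjusted p = 0.00502; after scaling −1.34, adjusted p = 0.0168). The scaled call of KIF3B was lost without uninjured control library 1. Its partner KIF3A stood at 103, 21.2 and 53.8 TPM against 22.3, 37.2 and 22.9 TPM, with overlapping groups (−0.86 (adjusted p = 0.105)), and the adaptor KIFAP3 at 105, 14.8 and 44.8 TPM against 27.8, 33.4 and 42.5 TPM (−0.28 (adjusted p = 0.662)). The ratio of KIF3A to KIF3B, given with no test and chosen after the values were seen, was 1.56 to 3.76 in uninjured control and 5.17 to 8.02 in uninjured inhibitor. At 4 dpi the ratio was 1.95 to 3.67 in control and 3.04 to 3.72 in inhibitor, so the groups separated only without injury. KIF3C, a neuronal partner of KIF3A, was called lower in uninjured inhibitor (6.80 ± 5.87 against 1.91 ± 0.451 TPM, mean ± SD, n = 3; −1.33 (adjusted p = 0.0364)) but not after scaling (−0.51). KIF17, the dendritic kinesin-2, was not (6.38 ± 4.16 against 2.45 ± 0.602 TPM; −1.08 (adjusted p = 0.0603)).

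In the kinesin-3 family the best known axonal motor had low TPM. KIF1A stood at 8.27, 1.40 and 1.44 TPM in uninjured control, 3.82, 0.931 and 1.06 TPM in 4 dpi control, 0.769, 1.04 and 0.732 TPM in uninjured inhibitor and 0.692, 0.814 and 0.529 TPM in 4 dpi inhibitor. On deposited TPM both inhibitor groups lay below their controls without overlap, yet no comparison called it (−1.25 (adjusted p = 0.0941) without injury and −0.86 (adjusted p = 0.31) at 4 dpi), and its mean in uninjured control rests on library 1. Scaled groups of KIF1A overlapped in both states of injury. KIF1B, which carries mitochondria and synaptic vesicle precursors, stood at 37.7, 2.00 and 6.07 TPM against 0.316, 2.22 and 0.168 TPM and was called lower despite overlapping groups (log2 fold change −2.91, SE 0.90, adjusted p = 0.018). KIF1C (−1.17 (adjusted p = 0.0258)), KIF13A (−1.10 (adjusted p = 0.0208)) and KIF16B (−1.19 (adjusted p = 0.0204)), motors of vesicles and endosomes, were called lower in uninjured inhibitor too, and of these 4 only KIF1B was also lower after scaling (−2.26, adjusted p = 0.0414). Without uninjured control library 1 or 5 the scaled call of KIF1B was lost. KIF13B was not called (−1.45 (adjusted p = 0.064)). At 4 dpi KIF13A stood at 3.04, 2.03 and 2.16 TPM in control and at 1.07, 1.30 and 0.781 TPM in inhibitor, without overlap (−0.91 (adjusted p = 0.112)), and KIF16B at 3.11, 2.24 and 1.80 TPM and 1.24, 1.67 and 1.64 TPM (−0.50 (adjusted p = 0.344)).

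Of the remaining transport motors KIFC3, a minus-end kinesin, fell from 6.98, 4.70 and 1.41 TPM to 0.267, 0.646 and 0.20 TPM with the inhibitor in uninjured cords (log2 fold change −2.30, SE 0.50, adjusted p = 0.0041). It was still lower after scaling (−1.71, adjusted p = 0.00894), also without uninjured control library 1 (−1.46, adjusted p = 0.032). KIF21A, which slows microtubule growth at the cell cortex, stood at 9.96 ± 8.37 TPM in uninjured control and 1.13 ± 0.761 TPM in uninjured inhibitor (mean ± SD, n = 3; log2 fold change −2.42, SE 0.61, adjusted p = 0.00717). Its scaled change was −1.67 (adjusted p = 0.0206), a call lost without uninjured control library 1 or 5. Its relative KIF21B, expressed in neurons and lymphocytes, did not pass (−1.08 (adjusted p = 0.068)).

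Markers of neurons were compared beside the transport kinesins. The list (12 of 12 in the table, with ELAVL3 at 0 in uninjured inhibitor library 7) held 0.254 to 1.44% of TPM in uninjured control, 0.28 to 0.593% in 4 dpi control, 0.249 to 0.355% in uninjured inhibitor and 0.137 to 0.165% in 4 dpi inhibitor. With the inhibitor 7 of these 12 markers were called lower in uninjured cords (beside 42% of all genes), 5 after scaling (13.2%) and none at 4 dpi. For injury under the inhibitor the median change was −0.39 for the neuron markers and 0.41 for the 21 transport kinesins, beside 0.26 for all genes. The 6 of these motors most enriched in neurons, named below, had a median change of −0.04. The part of the neuron markers in the motor differences was not tested, and in bulk tissue fewer neurons and less transcript per neuron cannot be told apart. Of the 6 transport kinesins most enriched in neurons that the table holds (KIF1A, KIF3C, KIF5A, KIF5C, KIF17 and KIF21B) 2 were called lower in uninjured cords (33.3%, against 42% of all genes) and none after scaling (against 13.2%). Their median change was −1.16, against −1.33 for all 21 transport kinesins and −0.997 for all genes.

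Except for injury under the inhibitor, the median change of the transport kinesins lay below that of all genes, and that of the mitotic kinesins lay close to it or above. In uninjured cords the median change with the inhibitor was −1.002 for the 12 mitotic kinesins tested and −1.33 for the 21 transport kinesins, beside −0.997 for all genes. At 4 dpi it was −0.32 and −0.78, beside −0.62. For injury in controls it was 0.10 and −0.53, beside −0.09, with 8 of 12 mitotic and 4 of 21 transport kinesins above the median of all genes. For injury under the inhibitor both lists moved alike, by 0.48 and 0.41, beside 0.26. After scaling the medians with the inhibitor were −0.07 and −0.54 in uninjured cords, beside −0.18, and 0.30 and −0.26 at 4 dpi, beside −0.06. These medians are descriptions and carry no test.

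Within a library the median log2(TPM + 0.5) of mitotic kinesins exceeded that of transport kinesins by 0.0211, 1.93 and 1.87 in uninjured control and by 1.45, 1.57 and 2.24 in 4 dpi control. The excess was 2.45, 2.02 and 2.53 in uninjured inhibitor and 1.80, 2.58 and 2.11 in 4 dpi inhibitor. Uninjured control library 1, where both lists stood at the same level, lay apart from the other 11, and the pooled SD within groups was 0.63. Uninjured inhibitor libraries all lay above uninjured control libraries, and the 4 dpi groups overlapped. Without uninjured control library 1 the difference between the lists for injury in controls dropped from 0.63 to 0.07.

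**Figure D4:**
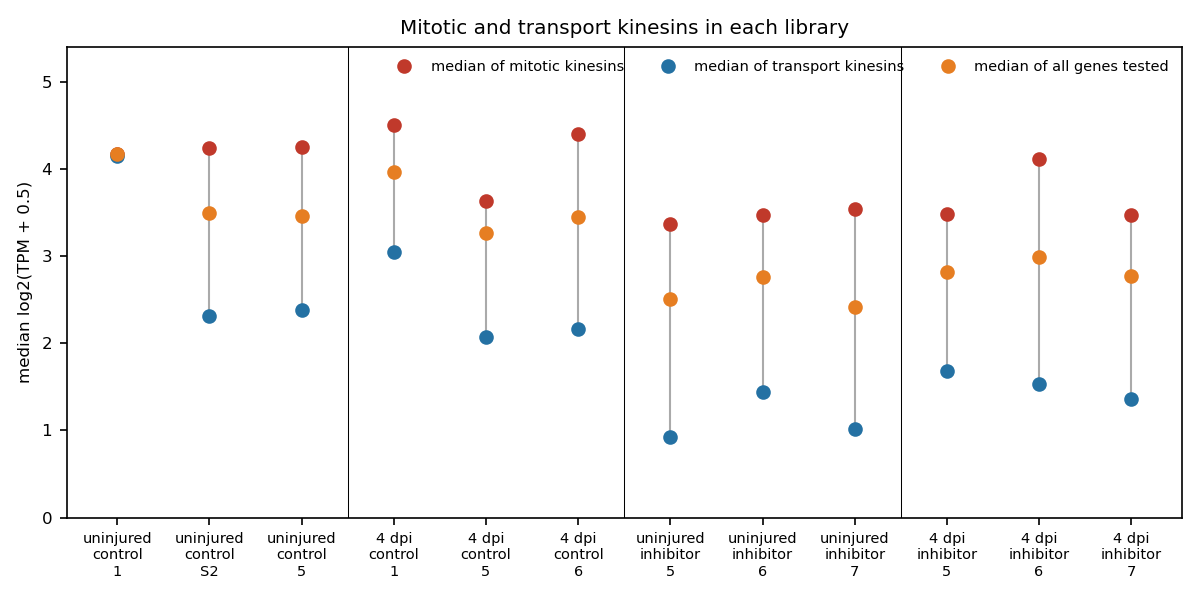
Median log2(TPM + 0.5) of the 12 tested mitotic kinesins, of the 21 transport kinesins and of all genes tested in each of the 12 libraries, grouped by condition and labelled by replicate, with grey lines joining the 2 kinesin medians of a library. In uninjured control library 1 all 3 medians lie between 4.15 and 4.18, and in the other 11 libraries the mitotic median lies 1.45 to 2.58 above the transport median.

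At 4 dpi the 3 inhibitor libraries were below all 3 control libraries for 22 of the 44 members tested, which is near the 46.8% of all genes. These were 16 of 21 transport kinesins, all 5 cilium kinesins, KIF26B and none of the 12 mitotic kinesins. After scaling 8 members were below without overlap (16.2% of all genes), 6 of them transport and 2 cilium kinesins, and 4 were above (17.7% of all genes), 3 of them mitotic. Under the inhibitor, injured libraries were above all uninjured ones for 18 of 44 members (28.7% of all genes), 9 of them mitotic. After scaling 9 were above (18% of all genes), 4 of them mitotic, and 7 below (17.1% of all genes). In these comparisons, on deposited or scaled values, only KIF14 was called, for injury under the inhibitor after scaling.

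Of the kinesins of cilia KIF19, which in mouse trims the tips of motile cilia, fell from 9.48, 5.65 and 7.72 TPM to 1.22, 3.29 and 1.80 TPM with the inhibitor in uninjured cords (log2 fold change −1.69, SE 0.39, adjusted p = 0.00491; not called after scaling, −0.87). KIF6, needed for ependymal cilia in mouse, stood at 6.58, 6.25 and 1.52 TPM against 0.665, 0.868 and 0.808 TPM (log2 fold change −1.84, SE 0.52, adjusted p = 0.0123; after scaling −1.13, adjusted p = 0.0578) and at 4 dpi at 6.18, 2.24 and 2.06 TPM against 0.651, 0.861 and 0.596 TPM (−1.59 (adjusted p = 0.0781)). KIF9, a motor of the axoneme of motile cilia, had the smallest adjusted p of all members at 4 dpi. It stood at 16.5, 9.98 and 10.6 TPM in 4 dpi control and at 3.07, 4.49 and 3.18 TPM in 4 dpi inhibitor, with no overlap (log2 fold change −1.64, SE 0.44, adjusted p = 0.0572), and was called without uninjured control library 1 (adjusted p = 0.0249) or S2 (adjusted p = 0.0252). It was not called at 4 dpi after scaling, and over the alternatives its limma change there ran from −1.79 to −0.97 (adjusted p up to 0.225). Without injury KIF9 stood at 19.3, 4.47 and 13.8 TPM against 7.51, 6.34 and 7.62 TPM, which overlapped (−0.55 (adjusted p = 0.289)), and the interaction was not called (−1.09 (adjusted p = 0.658)).

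KIF27 (−0.69 (adjusted p = 0.104) without injury, −0.69 (adjusted p = 0.178) at 4 dpi) and KIF24, a depolymerase at the mother centriole (−0.96 (adjusted p = 0.112) and −0.94 (adjusted p = 0.197)), did not pass. The motile cilia markers (6 of 6 in the table, none at 0 in every library) held 0.00384 to 0.0122% of TPM in uninjured control, 0.00261 to 0.00815% in 4 dpi control, 0.00141 to 0.00205% in uninjured inhibitor and 0.00135 to 0.00181% in 4 dpi inhibitor. With the inhibitor 5 of the 6 were called lower in uninjured cords (beside 42% of all genes), 2 after scaling (13.2%) and 1 at 4 dpi (1.88% called in either direction), and their part in the cilium kinesin differences was not tested.

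Of the 6 members outside these lists KIF12, known from kidney epithelium in mouse, was the most constant call. It stood at 4.77, 2.32 and 2.38 TPM in uninjured control, was listed at 0 in all 3 uninjured inhibitor libraries, and stood at 0.647, 0 and 0 TPM in 4 dpi control and 0.553, 0 and 0 TPM in 4 dpi inhibitor. It was called lower in uninjured inhibitor under all 20 alternatives (adjusted p = 0.00235 on deposited TPM, 0.00342 after scaling). For injury in controls it just missed the threshold on deposited TPM (adjusted p = 0.0508) and was called lower after scaling (adjusted p = 0.0492), the 1 member lower there (0.0882% of all genes), and without uninjured control library S2 (adjusted p = 0.044) or 4 dpi control library 1 (adjusted p = 0.0236). KIF26B, a kinesin-like protein without motor activity, fell from 60.1, 18.6 and 13.1 TPM to 3.89, 7.82 and 4.93 TPM with the inhibitor in uninjured cords (log2 fold change −2.10, SE 0.55, adjusted p = 0.00845; after scaling −1.20, adjusted p = 0.0389). The scaled call of KIF26B was lost without uninjured control library 1. For injury in controls KIF26B, at 26.7, 8.20 and 8.09 TPM at 4 dpi, did not pass (−0.98 (adjusted p = 0.559)).

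KIF1BP, a protein that binds kinesins and keeps them off microtubules, was nearly level over the inhibitor libraries. It stood at 68.2, 40.8 and 63.1 TPM in uninjured control, 58.3, 84.7 and 70.5 TPM in 4 dpi control, 69.5, 69.3 and 68.3 TPM in uninjured inhibitor and 71.1, 69.6 and 68.1 TPM in 4 dpi inhibitor. With the inhibitor in uninjured cords its change was 0.30 (adjusted p = 0.266) on deposited TPM and 1.24 (adjusted p = 0.00666, called higher) after scaling. KIF26A, the relative of KIF26B, stood at 5.68, 11.9 and 4.66 TPM in uninjured inhibitor and at 24, 16 and 22.1 TPM in 4 dpi inhibitor, without overlap (1.51 (adjusted p = 0.127)), and was called higher there without uninjured inhibitor library 6 (1.89, adjusted p = 0.0463). KIF2A, a depolymerase of neurons and spindles, ranged from 0.907 to 6.93 TPM and differed by −1.07 (adjusted p = 0.08) with the inhibitor in uninjured cords. KIF25 stayed at or below 3.14 TPM and was at 0 in 3 libraries.

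The partners of the mitotic motors were called in both directions. Of 32 genes for spindle, kinetochore and midzone proteins 2 were called higher and 5 lower with the inhibitor in uninjured cords, beside 3.32% and 42% of all genes, and after scaling 9 were higher and none lower, beside 15.1% and 13.2%. MAD2L1, a spindle checkpoint protein, rose from 13.8, 26.1 and 17.1 TPM to 49.1, 52.8 and 45.2 TPM (log2 fold change 1.39, SE 0.26, adjusted p = 0.00239). Within the chromosomal passenger complex, which KIF20A carries, CDCA8 (borealin) rose from 95.8, 140.1 and 127 TPM to 294, 349.7 and 301 TPM (1.39 (adjusted p = 0.00347)), whereas its scaffold INCENP fell from 34.1, 33.4 and 22.7 TPM to 8.37, 8.93 and 11.7 TPM (−1.58 (adjusted p = 0.00329)). RACGAP1, which forms centralspindlin with KIF23, and PRC1, which recruits KIF4A and KIF14, were also lower (−1.19 (adjusted p = 0.00772) and −1.31 (adjusted p = 0.00512)). AURKB and BIRC5, also of the passenger complex, were not called, and their groups overlapped. AURKB stood at 148, 190 and 237 TPM in uninjured control against 199, 142 and 249 TPM in uninjured inhibitor, and BIRC5 at 28.1, 24.3 and 30.9 TPM against 45.2, 26.3 and 50.7 TPM. At 4 dpi none of the 32 was called (MAD2L1 1.05 (adjusted p = 0.0521), INCENP −1.23 (adjusted p = 0.0568)). Of the 32, 6 had an unadjusted p under 0.05 in limma, beside 32.4% of all genes.

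Partners of the transport motors (cargo adaptors, small GTPases and microtubule proteins of axons) were called in 1 direction only. Of the 25 tested 17 were lower in uninjured inhibitor and none higher, beside 42% and 3.32% of all genes, and after scaling 5 of 24 were lower and none higher, beside 13.2% and 15.1%. MAP7D1, which recruits kinesin-1 to microtubules, fell from 12.6, 7.08 and 4.60 TPM to 1.34, 1.81 and 1.51 TPM (−1.96 (adjusted p = 0.00312)). CAMSAP3, a minus-end protein, fell from 38.4, 23.8 and 10.4 TPM to 5.77, 7.74 and 6.13 TPM (−1.63 (adjusted p = 0.00708)). CAMSAP3 was not called after scaling, where its groups overlapped. At 4 dpi none of the 25 was called, with 6 at an unadjusted p under 0.05 in limma, beside 32.4% of all genes. The smallest adjusted p was at DCLK1, a doublecortin-like kinase (−1.28 (adjusted p = 0.0715)).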

How the data were processed

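TPM of each gene were deposited by the authors for 12 libraries of pooled axolotl spinal cord RNA, in 1 table of 15091 genes with human identifiers. Bowtie 0.12.1, RSEM 1.1.6 and DESeq2 1.16.1 are named, with no role, in the submitters' processing notes. The transcriptome or genome build is not given in the sources used here, nor is the step that assigned human names, so how reads of related motors were divided is unknown. Of the 45 member symbols 42 occur in the RefSeq gene table of this species.

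A filter of 0.5 TPM in 3 libraries left 14764 genes. Their log2(TPM + 0.5) was fitted in limma 3.58.1 (R 4.3.3) with a mean per group, all 12 libraries and a variance trend, and p-values were adjusted over all genes tested (Benjamini-Hochberg). Median-of-ratios scaling used the 13002 genes above 0 in every library. The labels do not say that pools came from separate clutches or days, so p-values measure only the spread between these libraries.

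Any member could be named. Library values were given for KIF11, KIF20A, KIF23, KIF1A, KIF5A and KIF5C, for members called in the injury comparison of controls or in the inhibitor comparison at 4 dpi, and for the 8 with the smallest adjusted p in each comparison. Partner genes were the 3 with the smallest adjusted p, of which 1 is not reported here. Library values of other members, and RACGAP1, PRC1, AURKB, BIRC5 and DYNC1H1, were added after their values were seen. Members and lists were chosen with earlier results of these data known. Alternatives were other pseudocounts (1 and 0.1), filters (none, 2 TPM), scalings and quantile normalization, a replicate block, fits restricted to the 6 libraries of a comparison, no fold threshold, and each library left out. The code was tested on simulated data.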

Additional observations from a re-analysis of the deposited data

How the results depend on the processing

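Read depth is unknown, so a 0 gives no detection limit, and each group held 3 pooled libraries. The number of members called in uninjured inhibitor minus uninjured control was 23, and it was 14 after median-of-ratios scaling (3 higher, 11 lower), 4 after quantile normalization, 15 in a fit of only the libraries compared and 13 to 30 with each library left out. Alternatives added after seeing the data gave, after scaling, 6 without uninjured control library 1, 13 without S2 and 14 without 5. For 4 dpi control minus uninjured control the number was 0, and 1 (KIF12) with a pseudocount of 1, no filter, median-of-ratios scaling or quantile normalization, and 0 to 2 with a library left out. For 4 dpi inhibitor minus 4 dpi control it was 0, and 2 (KIF5A and KIF9) in a fit of only the libraries compared and 0 to 5 with a library left out, the 5 without uninjured control library 1 being KIF5A, KIF6, KIF9, KLC1 and KLC2. For 4 dpi inhibitor minus uninjured inhibitor it was 0, and 1 (KIF14) after scaling or in a fit of only the libraries compared, and 0 to 2 with a library left out. The interaction gave 0 with any library left out. The share of all genes called under these alternatives is not given here, so the counts do not show a change particular to the motors. On deposited TPM the fold changes between the 4 dpi groups do not use the uninjured control libraries. Leaving 1 of those out can alter only the shared spread and the genes tested. The cause of the other moves was not tested. The difference of the mitotic and transport medians was 0.63 for injury in controls (0.07 to 0.93 with a library left out), 0.33 for the inhibitor without injury (0.12 to 0.67), 0.47 at 4 dpi (0.26 to 0.55) and 0.06 for injury under the inhibitor (−0.10 to 0.14, so its direction is not set).

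Of 1996 values of single members under an alternative, 1908 kept their call or stayed uncalled, 40 lost a call, 45 gained one and 3 reversed. Values that stayed uncalled counted as kept even where their sign changed. These 3 were called lower in uninjured inhibitor and turned positive under quantile normalization, at 0.16 for KIF13A, 0.13 for KIF16B and 0.17 for KIF23. Of the 23 members lower there, 2 kept the call under all 20 alternatives and each of the others under at least 11.

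Replicate numbers did not pair the libraries throughout: of 11 pairs with the same number in different groups, 4 had deviations correlated above 0.1 (r = −0.285 to 0.506). Of 43 pairs with different numbers it was 14. Between uninjured control and 4 dpi control, however, the same-number pairs had r = 0.506 (libraries 1) and 0.274 (libraries 5). Different numbers gave −0.425 to 0.227 there. Whether these control libraries share an origin was not tested. With the number as a replicate block 1 member was called for injury in controls (KIF12), 2 for the inhibitor at 4 dpi (KIF5A and KIF9) and 2 for injury under the inhibitor (KIF14 and KIF26A). The share of all genes called with the block is not given here.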

Other observations

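Cytoplasmic dynein, which works with its cofactor dynactin, is the motor that returns cargo towards the cell body. Of 23 genes for its subunits and adaptors 2 were called higher and 7 lower with the inhibitor in uninjured cords (beside 3.32% and 42% of all genes), and after scaling 8 were higher and none lower (limma, beside 15.1% of all genes higher and 13.2% lower). The 2 higher on deposited TPM were small light chains. DYNLL1 rose from 683, 675 and 550.3 TPM in uninjured control to 1410.5, 1187 and 1473 TPM (log2 fold change 1.09, SE 0.17, adjusted p = 0.00186). DYNLT1 rose from 83.2, 55 and 61.9 TPM to 154, 150.3 and 144 TPM (1.18 (adjusted p = 0.00221)). DCTN1, the large dynactin subunit that binds dynein and microtubules, fell from 30.0, 11.1 and 12.8 TPM to 4.93, 6.73 and 4.64 TPM (−1.52 (adjusted p = 0.00571)), and so did the heavy chain DYNC1H1 (−1.32 (adjusted p = 0.0157)). At 4 dpi no gene of this list passed both thresholds, and DYNLL1 differed by 0.75 (adjusted p = 0.0494). In control cords injury called none of the 23 (0.935% of all genes), and none had an unadjusted p under 0.05 in limma (10.5% of all genes).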
